A study of Saccharomyces cerevisiae with 4 samples.

Results

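The genes described here are 34 nuclear genes of *Saccharomyces cerevisiae*, MRPL1 to MRPL51, that code for proteins of the large subunit of the mitochondrial ribosome. They were chosen by their systematic names among the 6212 rows of a deposited table of microarray ratios, and each of the 34 has a row. Of these, 25 had a value on all 4 arrays, 6 had a value on 1 to 3 arrays, and 3 were empty throughout. Each ratio sets a trk1 trk2 double mutant against the wild type, both in the auxotrophic laboratory strain BY4741. TRK1 and TRK2 code for the high-affinity potassium uptake system of the plasma membrane, and the comparison asks which transcripts differ without it when potassium is plentiful. Both strains grew to log phase (A600 of 0.6) at 28 °C in a medium with 15 µM potassium of its own, to which 50 mM KCl was added. The labels describe a single mutant strain and do not say how it was made or how many clones were used. Mutant and wild-type cDNA shared each array, in 2 independent experiments with the dyes exchanged in each.

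The mitochondrial ribosome translates the few messages of the mitochondrial genome, nearly all of which code for subunits of the respiratory chain and the ATP synthase. Its ribosomal RNAs come from the mitochondrial genome, while all of its large-subunit proteins are coded in the nucleus, made in the cytosol and imported. Some of these proteins have counterparts in every ribosome (names beginning with uL), some in bacterial ribosomes (bL), and the rest occur in mitochondrial ribosomes alone (mL). Budding yeast that grows on glucose ferments and can do without this ribosome, but respiration depends on it.

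All values are log2 ratios of mutant over wild type as the authors deposited them, so a negative value is a lower level in the mutant. The base of the logarithm is not stated and was taken as 2. On arrays 1 and 4 the mutant cDNA was labelled with Cy5, and on arrays 2 and 3 with Cy3. The labels do not state which arrays form an experiment, and the sample titles number each array on its own, from Exp_1 to Exp_4. From the wording that their descriptions share, experiment 1 was read as arrays 1 and 2, and experiment 2 as arrays 3 and 4. A mean ratio is the mean of the 2 experiment means, its error is limma's moderated standard error with n = 2 experiments, and p-values were adjusted (Benjamini-Hochberg) over the 4255 genes with a value on all 4 arrays. The arrays gave values for 4690 to 5403 rows, and their number limits the precision. TRK1 read −6.13 on array 1 and −4.60 on array 4 and TRK2 −4.23 on array 4, and both genes were empty on the other arrays. The direction of the ratios was taken from these values, so they are not an independent check of it. For arrays 2 and 3, with the mutant in Cy3, direction rests on their positive correlation with the other arrays. In a bulk culture a lower ratio cannot be assigned to fewer expressing cells or to less RNA in each cell.

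The mitochondrial large-subunit genes sat slightly below the other genes in the mutant, and the shift of no single gene passed the test. Over the 25 members on all 4 arrays the median mean ratio was −0.23, which is 1.17-fold lower in the mutant, against −0.04 over all 4255 genes. A negative mean was found in 18 of the 25 members, or 72.0%, against 55.2% of all genes. The mean ratios ran from −0.61 for MRPL40 to 0.28 for MRPL4, with standard errors between 0.16 and 0.20. Of the 25 members, 0 passed an adjusted p of 0.05 in limma in either direction, where 1.74% of all genes passed as lower and 1.62% as higher, and the smallest adjusted p among the members was 0.132. At an unadjusted p under 0.05 limma placed 6 of the 25 members lower and 0 higher, against 12.9% of all genes as lower. The smallest mean change that passed among all genes was 0.86 on the log2 scale, which is larger than the mean change of any of the 25 members. A ratio that missed the threshold here is therefore not shown to be unchanged. The calls depended on how the arrays were paired: with arrays 1 and 3 as one experiment and arrays 2 and 4 as the other, MRPL40, MRPL23, MRPL49 and MRPL31 passed as lower, 4 of 25 members against 11.1% of all genes. MRPL40 and MRPL23 also passed as lower with the arrays as 4 separate replicates, where 5.88% of all genes did, and with the experiment as a random block, where 6.86% did.

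**Figure D1:**
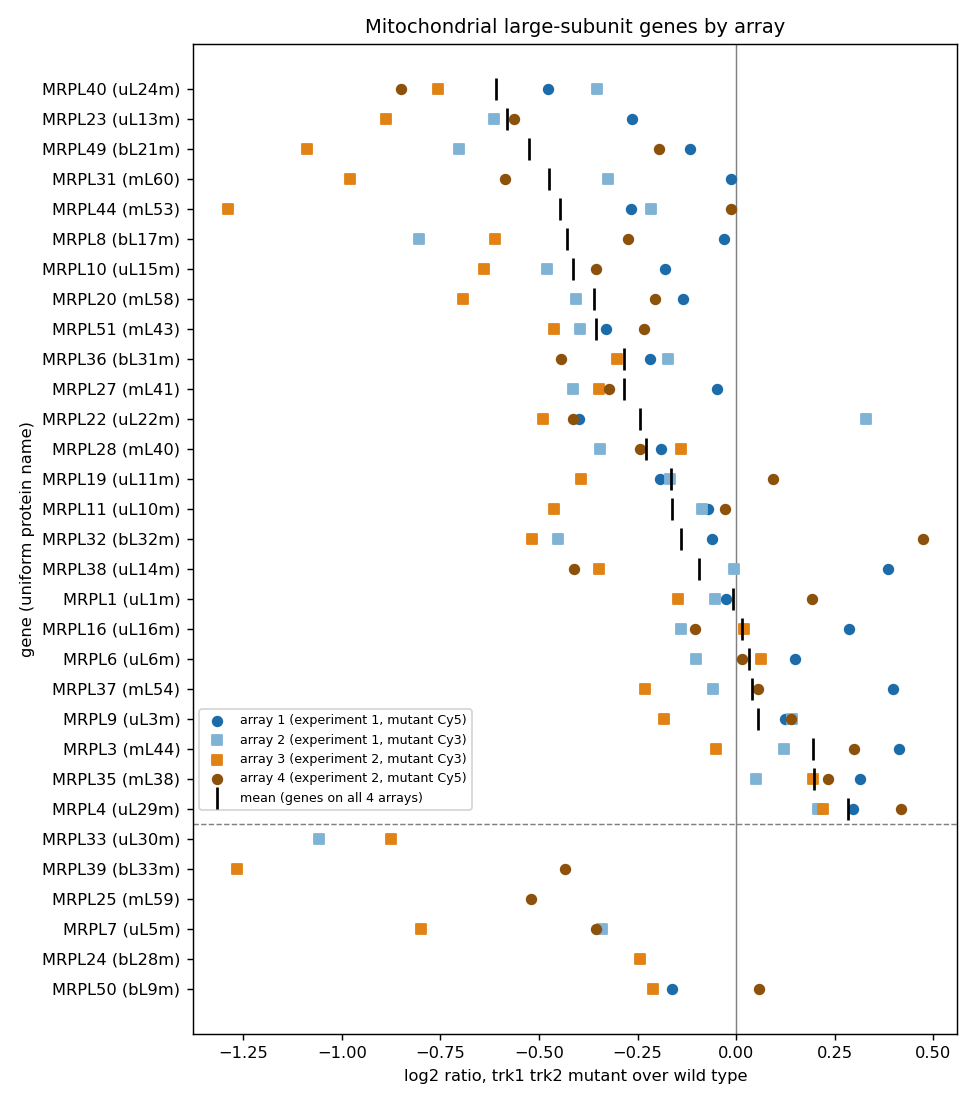
Log2 ratio of mutant over wild type (horizontal axis) for each of the 31 members with a value, one row per gene with its uniform protein name. Coloured points are the 4 arrays (circles, mutant in Cy5; squares, mutant in Cy3) and black bars the means; genes under the dashed line had a value on 1 to 3 arrays. The 13 genes with all 4 points left of 0 lie mostly at the top, and only MRPL4 and MRPL35 have all 4 points right of 0.

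Negative values on every array were more frequent among the members than among all genes, although 10 of the 25 had values of both signs. On all 4 arrays 13 of the 25 read negative (52.0%), against 21.1% of all genes, and 2 read positive (8.0%), against 17.5%. When each array was set against its own median over all genes, 11 of the 25 members lay below it on every array, against 19.4% of all genes. The arrays of an experiment hold the same comparison with the dyes exchanged, so 4 arrays of one sign are not 4 independent observations. A change of at least 1.5-fold with the same sign on all 4 arrays was found in 1 member, MRPL40, where 6.67% of all genes were lower by this measure and 3.88% higher.

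The shift was not of one size on the 4 arrays. The member medians were −0.06, −0.17, −0.39 and −0.20 on arrays 1 to 4, where the medians of the 4255 genes were −0.02, −0.09, −0.09 and 0.04. Members therefore lay close to the other genes in experiment 1, 0.05 and 0.08 below the median of all genes, and further below in experiment 2, by 0.31 on array 3 and by 0.24 on array 4. On array 3 the members ran from −1.29 to 0.22 and 21 of 25 were negative. On array 1 they ran from −0.48 to 0.41 and 17 of 25 were negative. Array 3 gave the lowest of the 4 values in 15 of the 25 members, against 31.7% of all genes, and 17 of 25 members were lower in experiment 2 than in experiment 1. The median difference between the experiments was −0.15 over the members and 0.02 over all genes. Within each experiment the member median was lower on the array with the mutant in Cy3 than on the array with the mutant in Cy5, as was the median of all genes. Without array 3 the member median was −0.13, against 0.003 over all genes, and without array 2 or array 3 only 1 member stayed under an unadjusted p of 0.05 in limma. Each mean holds the mutant in Cy5 on 2 arrays and in Cy3 on 2 arrays, so a dye term cannot change the member median of −0.23. With any 1 array left out the member median stayed negative, between −0.27 and −0.13.

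Genes of the tunnel exit, where the new protein leaves the subunit and meets the inner membrane, gave both the lowest and the highest mean ratio among the 25 members on all 4 arrays. MRPL40 (YPL173W, uL24m) read −0.48, −0.35, −0.76 and −0.85 on arrays 1 to 4. It was lower in the mutant on every array, with a mean of −0.61 ± 0.18 (1.53-fold lower, 95% interval −1.04 to −0.18, limma adjusted p = 0.132). Its mean lies at percentile 6.82 of all genes. MRPL4 (YLR439W, uL29m), its neighbour at the tunnel rim, read 0.30, 0.21, 0.22 and 0.42. All 4 arrays were positive and close together, and the mean was 0.28 ± 0.16 (95% interval −0.11 to 0.68, limma adjusted p = 0.378). The 4 values of MRPL40 do not overlap those of MRPL4, but these genes were picked as the lowest and the highest mean, which favours such a gap. MRPL22 (YNL177C, uL22m), which lines the tunnel, read −0.40, 0.33, −0.49 and −0.41, so that array 2 stood apart from the other arrays. The mitochondria-specific MRPL27 (mL41) was negative on all 4 arrays, with a mean of −0.28 ± 0.16. MRPL3 (YMR024W, mL44), a protein with an RNase III-like fold, read 0.41, 0.12, −0.05 and 0.30, a mean of 0.20 ± 0.16. MRPL13 (mL50), also near the exit, was empty on all arrays.

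Genes for proteins close to the catalytic centre and the contact with the small subunit had means near 0, with values of both signs on single arrays. MRPL9 (YGR220C, uL3m), which reaches toward the peptidyl transferase centre, read 0.12, 0.14, −0.18 and 0.14. The value on array 3 was the only negative value of the 4, and the mean was 0.06 ± 0.17 (95% interval −0.34 to 0.45). MRPL16 (uL16m), next to the site of tRNA binding, had a mean of 0.02 ± 0.16. MRPL38 (YKL170W, uL14m), at the face toward the small subunit, read 0.39, −0.01, −0.35 and −0.41, a mean of −0.09 ± 0.20. Its experiments went apart, with 0.19 in experiment 1 and −0.38 in experiment 2.

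The stalks of the subunit guide tRNA and translation factors, and their genes had means between −0.17 and 0.03. MRPL1 (uL1m), the protein of the L1 stalk, had a mean of −0.01 ± 0.16. MRPL6 (uL6m), close to where the factors bind, stood at 0.03 ± 0.16. MRPL11 (YDL202W, uL10m) and MRPL19 (uL11m), at the base of the other stalk, stood at −0.16 ± 0.17 and −0.17 ± 0.16. MRPL11 read −0.46 on array 3 and between −0.09 and −0.03 on the other arrays. These 4 genes ranked between MRPL28 and MRPL37 in the order of the means, and their 95% intervals all held 0 (the widest from −0.56 to 0.24).

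**Figure D2:**
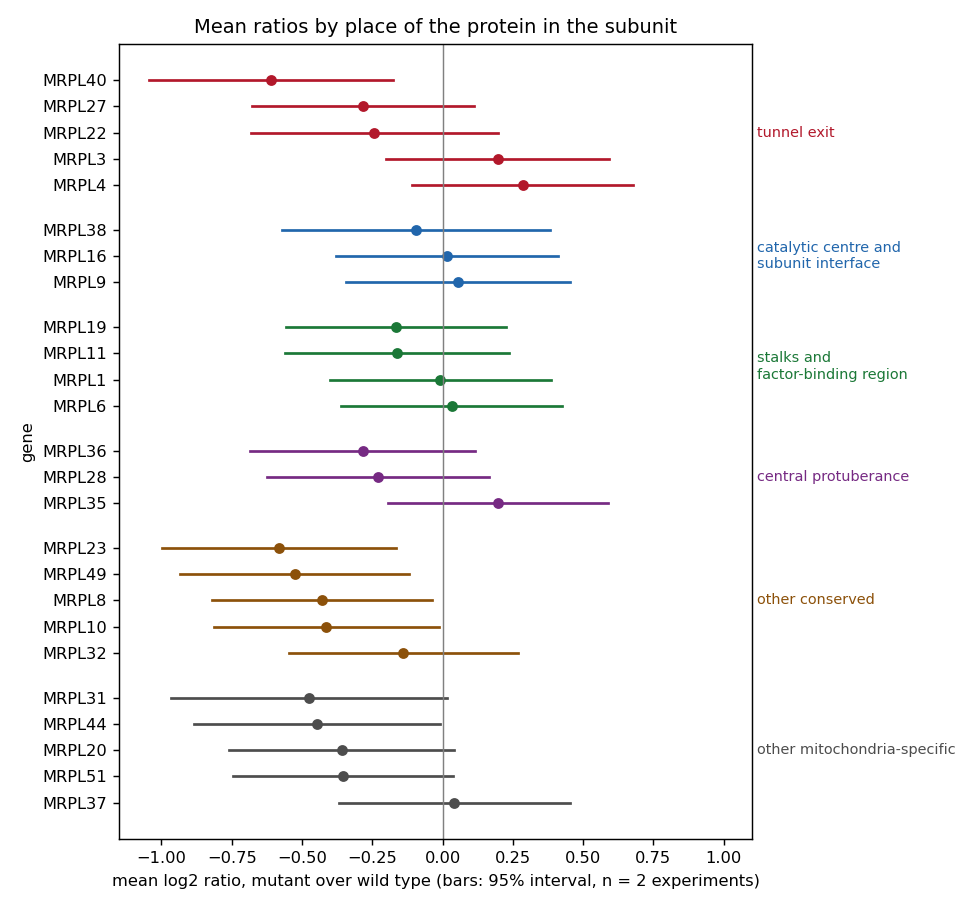
Mean log2 ratio of mutant over wild type (points) with its 95% interval (bars, n = 2 experiments) for the 25 members on all 4 arrays, grouped by the place of the protein in the subunit. The intervals of MRPL40, MRPL23, MRPL49, MRPL8, MRPL10 and MRPL44 lie left of 0, and those of the catalytic centre and the stalks are spread around 0.

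The central protuberance, at the top of the subunit, was measured on all 4 arrays by 3 genes. MRPL36 (bL31m) and MRPL28 (mL40) were negative on every array, with means of −0.28 ± 0.17 and −0.23 ± 0.16. MRPL35 (YDR322W, mL38) went the other way, at 0.31, 0.05, 0.19 and 0.23, and with MRPL4 it was 1 of the 2 members positive on all arrays (mean 0.20 ± 0.16, limma adjusted p = 0.530). MRPL7 (YDR237W, uL5m) was listed on 3 arrays, at −0.34, −0.80 and −0.36 on arrays 2, 3 and 4. MRPL17 (mL46) was empty.

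The remaining conserved proteins were those not assigned to a place above, so they need not share a place or a role. Their genes had 5 of 5 means negative, where 55.2% of all genes did, with a median of −0.43. This count and median depend on the assignment, for example of MRPL8 and MRPL32, and other assignments were not tested. None of the 5 passed in limma, and their median was −0.12 on array 1 and −0.64 on array 3. MRPL23 (YOR150W, uL13m) read −0.26, −0.61, −0.89 and −0.56, negative throughout and lowest on array 3. Its mean was −0.58 ± 0.17 (95% interval −1.0 to −0.17, limma adjusted p = 0.132). MRPL49 (YJL096W, bL21m) read −0.12, −0.70, −1.09 and −0.20, a mean of −0.53 ± 0.17 (limma adjusted p = 0.153). Its arrays with the mutant in Cy3 were both lower than those with the mutant in Cy5. The same order held for MRPL8 (bL17m), with −0.80 and −0.61 on arrays 2 and 3 and −0.03 and −0.28 on arrays 1 and 4, and for MRPL10 (uL15m), with −0.48 and −0.64 against −0.18 and −0.36. MRPL8 and MRPL10 had means of −0.43 ± 0.16 and −0.41 ± 0.17. MRPL32 (YCR003W, bL32m), which the m-AAA protease of the inner membrane matures in yeast, read −0.06, −0.45, −0.52 and 0.47. It was the highest of the 25 members on array 4, although 3 of its 4 values were negative, and its mean was −0.14 ± 0.17.

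Among the other mitochondria-specific proteins 4 of 5 means were negative, against 55.2% of all genes, with a median of −0.36. MRPL31 (YKL138C, mL60) read −0.01, −0.32, −0.98 and −0.59, so experiment 2 was lower than experiment 1 by 0.61 (mean −0.48 ± 0.20, limma adjusted p = 0.261). MRPL44 (YMR225C, mL53) read −0.27, −0.22, −1.29 and −0.01, the widest range over arrays of all members, and its value on array 3 was the lowest single value among the 25 genes. Its mean was −0.45 ± 0.18 (95% interval −0.88 to −0.01, limma adjusted p = 0.239), and it rests on array 3, without which it was −0.13. MRPL20 (mL58) and MRPL51 (mL43) had means of −0.36 ± 0.17 and −0.36 ± 0.16, and MRPL51 ranged only from −0.46 to −0.23. MRPL51 overlaps the open reading frame YPR099C (mean −0.31) and MRPL19 overlaps YNL184C, so signal from either member of these overlapping pairs cannot be told apart. MRPL37 (mL54) read 0.40, −0.06, −0.23 and 0.06, a mean of 0.04 ± 0.17.

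By the class of the protein's name, all 4 bacterial-type members on all arrays had a negative mean (median −0.36), as did 6 of 9 mitochondria-specific members (median −0.28) and 8 of 12 universal members (median −0.13). Of all genes, 55.2% had a negative mean, and differences between the classes were not tested. On array 1 the 3 medians were −0.09, −0.05 and −0.05, and on array 3 they were −0.56, −0.35 and −0.37. The universal class also held the extremes, MRPL40 and MRPL4, so the classes overlapped over most of their range.

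Members missing from some arrays pointed down as well, but their values are few. MRPL33 (YMR286W, uL30m) was listed at −1.06 on array 2 and −0.88 on array 3, the arrays with the mutant in Cy3. MRPL39 (YML009C, bL33m) was listed at −1.27 on array 3 and −0.44 on array 4. MRPL25 (YGR076C, mL59), whose loss is known to lengthen the replicative life span of yeast, was listed on array 4 alone, at −0.52. MRPL24 (YMR193W, bL28m) was listed on array 3 alone, at −0.24. MRPL50 (YNR022C, bL9m) read −0.16, −0.21 and 0.06 on arrays 1, 3 and 4, the only positive value among the 12 values of these 6 genes. Small or dim spots (below 120 µm or 100 fluorescence units) were left out by the authors, and whether the empty cells are dim spots cannot be seen in the ratios. MRPL13, MRPL15 and MRPL17 gave no value.

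The members kept part of their order from array to array. Pearson's correlation across the 25 members was 0.43 between arrays 1 and 2 and 0.52 between arrays 3 and 4, and 0.40 to 0.62 between arrays of different experiments. Across all 4255 genes it was 0.80, 0.39 and 0.27 to 0.69. Genes on one array share its RNA and its normalization, and they are not independent replicates. The median range over the 4 arrays was 0.46 for a member and 0.64 over all genes.

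The small subunit of the same ribosome also lay below the other genes. Of its 34 listed genes, 29 had a value on all 4 arrays, and their median was −0.17, against −0.04 over all genes. A negative mean was found in 24 of 29 (82.8%), against 55.2% of all genes. On every array 8 of 29 were negative (27.6%), nearer to the 21.1% of all genes than to the 52.0% of the members. In limma 0 passed the adjusted threshold. At an unadjusted p under 0.05 limma placed 6 lower, where 12.9% of all genes were, and 1 higher. MRPS35 read −0.20, −0.80, −0.91 and −0.87 (mean −0.70 ± 0.18, limma adjusted p = 0.102), the lowest of the list. RSM22, a methyltransferase-like protein of the small subunit, was the highest at 0.36, 0.62, 0.50 and 0.52 (mean 0.50 ± 0.16, limma adjusted p = 0.158). The small-subunit medians on arrays 1 to 4 were −0.03, −0.15, −0.39 and −0.27, in the same order of arrays as the large-subunit medians.

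In their mean ratios, other large-subunit genes outside the MRPL series did not share the position of the members, but on array 3 they also lay low. The 6 of 10 with a value on all 4 arrays had a median of −0.04, with 3 of 6 means negative and 0 of 6 negative on every array. Their medians on arrays 1 to 4 were 0.11, 0.08, −0.34 and −0.03, and on array 3 the members stood at −0.39 and all genes at −0.09. In limma 0 of them passed, and 0 at an unadjusted p under 0.05. MRP20 (YDR405W), the uL23 protein beside MRPL4 at the tunnel exit, was the highest of the list at 0.70, 0.50, 0.22 and 0.16 (mean 0.40 ± 0.18, limma adjusted p = 0.288). MNP1, the stalk protein related to bacterial L7/L12, was the lowest at −0.17 ± 0.18. Differences between the members and this or any other list were not tested.

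Among the genes that serve the mitochondrial ribosome, none passed the adjusted threshold in limma. The 6 translation factors on all 4 arrays had a median of −0.10, with 0 of 6 called and 1 lower at an unadjusted p under 0.05. That gene was TUF1 (YOR187W), the elongation factor that brings aminoacyl-tRNA to the mitochondrial ribosome, at −0.72, −0.78, −0.66 and −0.51. The 4 arrays were close together and negative (mean −0.67 ± 0.17, limma adjusted p = 0.0922, but 0.0164 with the other pairing of arrays). RRF1, the ribosome recycling factor, was the highest factor at 0.32 ± 0.21, a mean raised by 1.18 on array 4. The 10 assembly genes had a median of −0.08, with 0 called and 1 lower at an unadjusted p under 0.05. That gene, AFG3 (YER017C), a subunit of the protease that matures MRPL32, read −0.46, −0.72, −0.40 and −0.79 (mean −0.59 ± 0.16, limma adjusted p = 0.114). YTA12, the gene of the other subunit, had both signs, at −0.68, 0.16, 0.31 and −0.23 (mean −0.11 ± 0.17). MTG2, a GTPase of large-subunit assembly, was the highest at 0.28 ± 0.19.

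The 9 mitochondrial tRNA synthetases had a median of 0.004, with 0 called and 1 lower at an unadjusted p under 0.05, and ran from MST1 at −0.46 ± 0.30 to MSM1 at 0.31 ± 0.17. The low mean of MST1, the threonine enzyme, rests on array 3, where it read −1.72 against 0.09, 0.29 and −0.48 on the other arrays. Mitochondrial transcription was represented by RPO41, the RNA polymerase, at −0.35 ± 0.17 and by its partner MTF1 at −0.02 ± 0.16, neither past the test in limma.

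**Figure D3:**
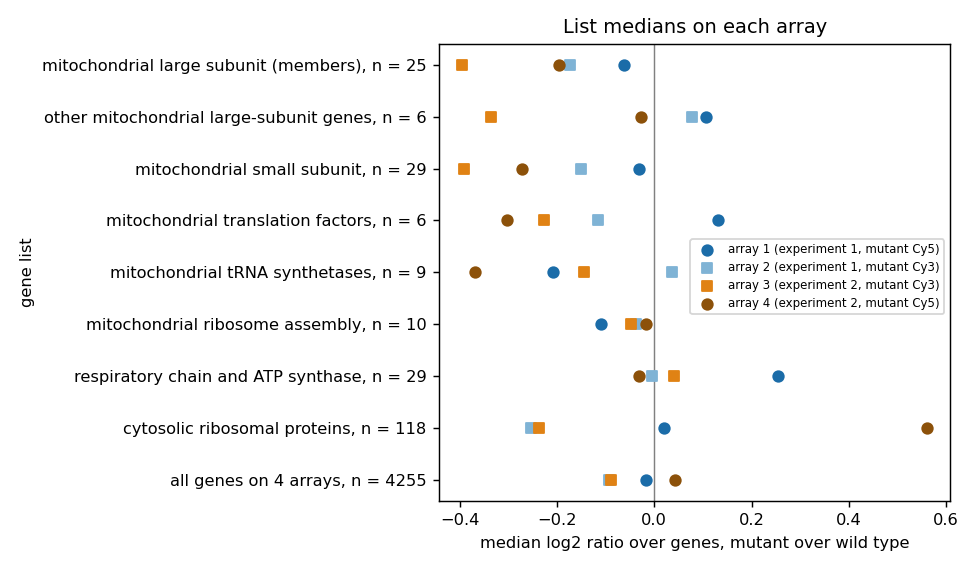
Median log2 ratio of mutant over wild type on each array (horizontal axis; circles, mutant in Cy5; squares, mutant in Cy3) for the members, 7 other gene lists and all genes on 4 arrays, with the number of genes in each. The members and the small-subunit list are left of 0 on all 4 arrays and lowest on array 3, while the cytosolic ribosomal proteins reach 0.56 on array 4.

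The nuclear genes for the respiratory chain and ATP synthase, whose partner subunits this ribosome makes, did not lie low with the members. Over 29 of these genes the median was 0.10, with 12 of 29 means negative. In limma 0 of 29 passed, and at an unadjusted p under 0.05, 2 were higher and 2 lower. COX5B (YIL111W), the hypoxic form of a cytochrome c oxidase subunit, was the lowest at −1.30 ± 0.28 (limma adjusted p = 0.0622), and COX6 the highest at 0.51 ± 0.19. The array medians of this list were 0.26, −0.004, 0.04 and −0.03.

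Cytosolic ribosomal proteins, which form the ribosome that makes the members, went a different way from them on array 4. Over 118 of these genes the median of the means was 0.03, and on arrays 1 to 4 it was 0.02, −0.25, −0.24 and 0.56. On array 4 the cytosolic list was thus the highest of the lists and the mitochondrial members stood at −0.20. In limma 0 of 118 passed, and 1 was lower at an unadjusted p under 0.05, RPL31B (YLR406C), a paralog of RPL31A, at −0.79 ± 0.16 (limma adjusted p = 0.0606). Many cytosolic ribosomal protein genes have a near-identical copy that can hybridise to the same spot, so single values of this list are uncertain.

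**Figure D4:**
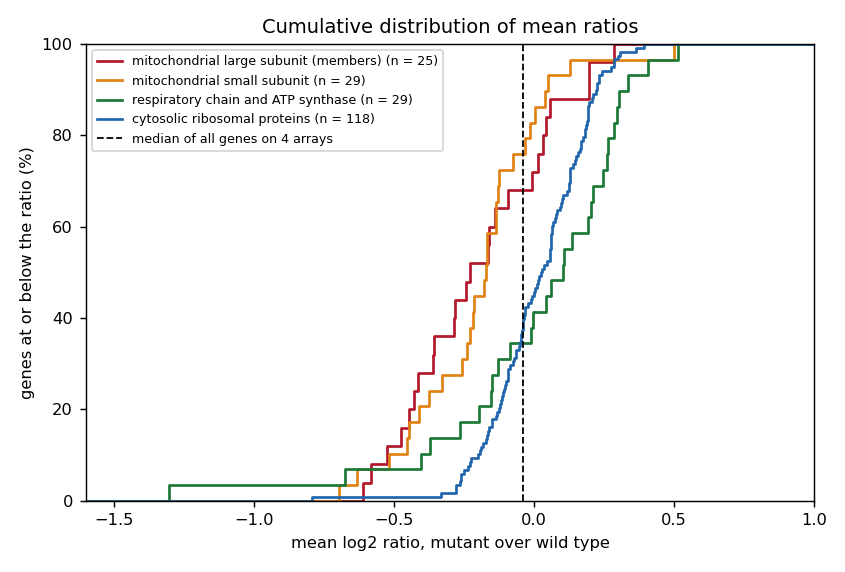
Share of genes at or below a given mean log2 ratio of mutant over wild type (vertical axis in percent) for the members, the mitochondrial small subunit, the respiratory chain and ATP synthase, and the cytosolic ribosomal proteins. The 2 mitochondrial ribosome curves run together to the left, with medians of −0.23 and −0.17, and the other 2 to the right, with medians of 0.10 and 0.03.

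In the genome 19 of the 34 members are transcribed away from a neighbouring gene on the opposite strand. Of these neighbours, 12 had a value on all 4 arrays, and 0 of the 12 passed in limma. Their median mean ratio was 0.10, with 5 of 12 negative. LSM3, an RNA-binding protein gene beside MRPL4, read 0.69 (limma adjusted p = 0.0806), and NIP100 beside MRPL40 read −0.15, each with the sign of its member. URA7, a CTP synthase gene beside MRPL16, read −0.66 where MRPL16 read 0.02, and FMN1, the riboflavin kinase gene beside MRPL7, read 0.42 where MRPL7 was negative on its 3 arrays.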

How the data were processed

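The deposited values are log2 ratios of the 2 channels, processed by the authors. Per the labels' protocols, oligo(dT)-primed cDNA from 8 µg of total RNA was labelled indirectly through dUTP, and small or dim spots were left out. Normalization, scanner and logarithm base were not given in the sources used here. The base was assumed to be 2, and direction was taken from TRK1, TRK2 and the positive correlation of the arrays. Depth and spot brightness are not in the ratios. Symbols and uniform protein names come from a RefSeq gene table (assembly R64), which matched all 34 members. Sequences were not used here.

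Dye-swapped arrays were averaged by experiment, and the 2 means were tested against 0 with limma 3.58.1 (lmFit, eBayes) in R 4.3.3 over 4255 genes, with p-values adjusted by Benjamini-Hochberg and called under 0.05. The fit was tested on simulated data. No sample was dropped or imputed. A total of 13 alternative settings were run. Separate cultures are implied only by the labels' word independent, so p-values may cover technical spread.

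All 34 members were to be accounted for. Values on each array are given for the 5 highest and 5 lowest means, the 3 widest ranges and the partly listed members. The highest and lowest gene of each other list is named. Members, lists and places in the subunit were chosen with earlier results of these data known, and other genes were named after their values were seen.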

Additional observations from a re-analysis of the deposited data

Results flagged for a closer look

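In 3 of the 25 members with a value on all 4 arrays, 1 array stood far from the other arrays, with a gap to the nearest that took up most of the gene's whole range (Dixon's test). Chance gives such a gap in about 1 of 20 genes where the 4 values are independent, which arrays of one experiment need not be, and 6.77% of the 4255 genes showed it. MRPL9 read −0.18 on array 3 against 0.12 to 0.14 on the other arrays. MRPL11 read −0.46 on array 3 against −0.09 to −0.03. MRPL22 read 0.33 on array 2 against −0.49 to −0.40.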

How the results depend on the processing

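Members called lower numbered 0 in the main analysis, 4 with the other pairing of arrays (MRPL40, MRPL23, MRPL49 and MRPL31, adjusted p from 0.0209 to 0.0397, where 11.1% of all genes were lower), 2 with 4 separate arrays (MRPL40 and MRPL23, where 5.88% were lower) and 2 with the experiment as a random block (the same 2 genes, where 6.86% were lower). The cause was not tested. These last 2 settings count dye-swapped arrays as replicates. The main analysis and the other pairing each hold only if their own pairing is right, which was not tested. Over all genes, arrays 1 and 2 correlated at 0.80 and arrays 3 and 4 at 0.39. Arrays read as different experiments correlated at 0.27 to 0.69, and the correlation within experiments in the random block fit was −0.05. With every other setting, and with any array left out, 0 members were called in either direction. Settings that change only the pairing, the error model or the dye term cannot move a gene's mean, and left the member median at −0.23. It was −0.24 when 1 value per experiment or any 2 values sufficed, −0.18 with centred arrays and −0.23 with scaled arrays. With 1 array left out it lay between −0.27 and −0.13, and its distance from the median of all genes ran from −0.20 to −0.13 there. The count of members at least 1.5-fold changed was 1 in the main analysis, 2 when 1 value per experiment sufficed, 3 when any 2 values sufficed, 0 with centred arrays, and 1 to 4 with 1 array left out (3 without array 1, 4 without array 4). Both looser filters test more members. The count of members negative on every array used, a check added after the data were seen, was 13, 11 with centred arrays and 13 to 16 with 1 array left out.

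With the other pairing, 4 of 29 small-subunit genes, 1 of 6 translation factors and 1 of 9 tRNA synthetases were called in either direction. So were 1 of 10 assembly genes, 3 of 29 respiratory genes and 1 of 118 cytosolic ribosomal protein genes. Of all 4255 genes this pairing called 473 lower and 255 higher. The main analysis called 0 in each of these lists. The 4 separate arrays and the random block each called 3, 1, 0, 1, 2 and 1 of these lists in the same order. A dye term left 1 translation factor, TUF1 (adjusted p = 0.041). Any 2 values gave 1 small-subunit gene, 1 factor, 1 assembly gene and 1 respiratory gene, and centred arrays 1 respiratory gene. Leaving out 1 array gave 0 to 1 cytosolic genes. Across all genes, leaving out array 3 ended every call (0 higher and 0 lower), so the absence of calls there says nothing about the members. Of all genes the main analysis called 74 lower and 69 higher. The 4 separate arrays called 250 and 163, the random block 292 and 185 and a dye term 142 and 103. Looser filters gave 39 and 40, or 179 and 130.

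Members near 0 changed sign with 1 array left out, within −0.0935 to 0.076 for MRPL1, −0.0308 to 0.0943 for MRPL6, −0.0253 to 0.136 for MRPL9, −0.0913 to 0.121 for MRPL16, −0.388 to 0.108 for MRPL32, −0.0735 to 0.155 for MRPL37 and −0.192 to 0.00325 for MRPL38. Without changing sign, the mean moved by over 1.5 times for MRPL44 (−0.13 without array 3, −0.77 without array 4), MRPL49 (−0.30 without array 3), MRPL8 (−0.24 without array 2), MRPL20 (−0.24 without array 3), MRPL22 (−0.06 without array 1, −0.43 without array 2), MRPL3 (0.12 without array 1, 0.11 without array 4), MRPL11 (−0.05 without array 3, −0.27 without array 4) and MRPL19 (−0.04 without array 3, −0.29 without array 4). MRPL1 also turned positive with centred arrays (0.0426). Mutant and wild type share each array, so the test against 0 pairs them, with no further pairing.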
